A study of Mus musculus with 6 samples.

Results

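Genes of cytosolic RNA sensing were examined in RAW 264.7 cells, a mouse macrophage-like line, after transfection with an antisense GapmeR against Mist. The set holds 8 genes chosen by their role in the pathway: Ddx58, Ifih1, Dhx58, Mavs, Eif2ak2, Trim25, Traf3 and Ikbke. A gene was read at probe sets listed with that gene alone, which gave 7 of the 8 genes 1 probe set each, out of 22180 genes and 41345 probe sets in all. Traf3 had no such probe set and was not analysed here. The comparison is between groups of 3 arrays each: cells given a non-targeting control GapmeR (Control) and cells given a GapmeR that targets Mist (Mist-targeted). Both groups were transfected at 50 nM with Lipofectamine RNAiMAX and RNA was taken after 48 h, so both carried a foreign oligonucleotide, and the labels name 1 targeting reagent and 1 cell line. A GapmeR is an antisense DNA strand with locked nucleic acid ends whose pairing leads RNase H to cut the matching RNA, and Mist is a long noncoding RNA of macrophages. No probe set was named Mist in the annotation, so the loss of the target could not be read and group membership comes from the labels.

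Cells detect foreign RNA in the cytosol with RIG-I-like receptors, which are helicases that bind double-stranded RNA. RIG-I, encoded by Ddx58, and MDA5, encoded by Ifih1, carry caspase recruitment domains that engage the adaptor MAVS on mitochondria, whereas LGP2, encoded by Dhx58, lacks these domains and tunes the others. MAVS recruits TRAF proteins and the kinases TBK1 and IKK epsilon (Ikbke), which phosphorylate IRF3 and IRF7 to switch on type I interferon genes. The kinase PKR, encoded by Eif2ak2, also binds double-stranded RNA and phosphorylates the translation factor eIF2. In macrophages most of these sensors are themselves interferon-stimulated genes, so their transcripts rise once interferon signals.

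Values are deposited log2 expression, and 1 unit is a 2-fold difference. Each array measured RNA pooled from many cells, so a change in some cells and a smaller change in all of them cannot be told apart. The 6 arrays had medians of 4.47 to 4.50, and correlated at 0.988 to 0.991 within groups and 0.986 to 0.989 between groups. All 9 macrophage markers read had a mean above the median of the table (4.47), against 1 of 9 markers of other cell types. None of these 18 marker genes passed the test. The groups did not overlap for 3 of the macrophage markers (1 higher and 2 lower with the Mist-targeted GapmeR) and for 1 of the other markers, which was higher, where 15.9% of all probe sets and 29.3% of genes with a mean above the median of the table did not overlap in either direction. Log2 values summed over the other markers were 36.95 to 37.61 on Control arrays and 36.90 to 37.84 on Mist-targeted arrays, and those of the macrophage markers 90.88 to 91.34 and 90.22 to 91.27. The labels do not state that replicates were separate cultures, and p-values therefore measure only the spread among these arrays, which could be technical.

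The 4 sensor genes Ddx58, Ifih1, Dhx58 and Eif2ak2 were each higher on all 3 Mist-targeted arrays than on any Control array. Their differences were 0.32 to 0.41 on the log2 scale, or 1.24-fold to 1.33-fold. The 3 other genes that were read, Mavs, Trim25 and Ikbke, had overlapping groups, with differences of -0.16 to 0.23. No gene of the set passed the test over all probe sets (limma, adjusted p of 0.16 to 0.97), where 0.254% of probe sets were called in either direction. At an unadjusted p under 0.05 the 4 sensors were higher and none of the 7 was lower, where 4.77% of probe sets were higher and 4.92% lower by that measure. Groups did not overlap, with Mist-targeted higher, in 8.2% of all probe sets and in 14.5% of the 11567 genes with a mean above the median of the table, the part of the table in which all 7 genes lie. None of the 7 was lower without overlap, where 7.72% of all probe sets and 1713 of those 11567 genes were. At an unadjusted p under 0.05, 989 of the 11567 genes were higher and 1119 lower. The median difference of the 7 genes was 0.32, where that of all genes was 0.0069.

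**Figure D1:**
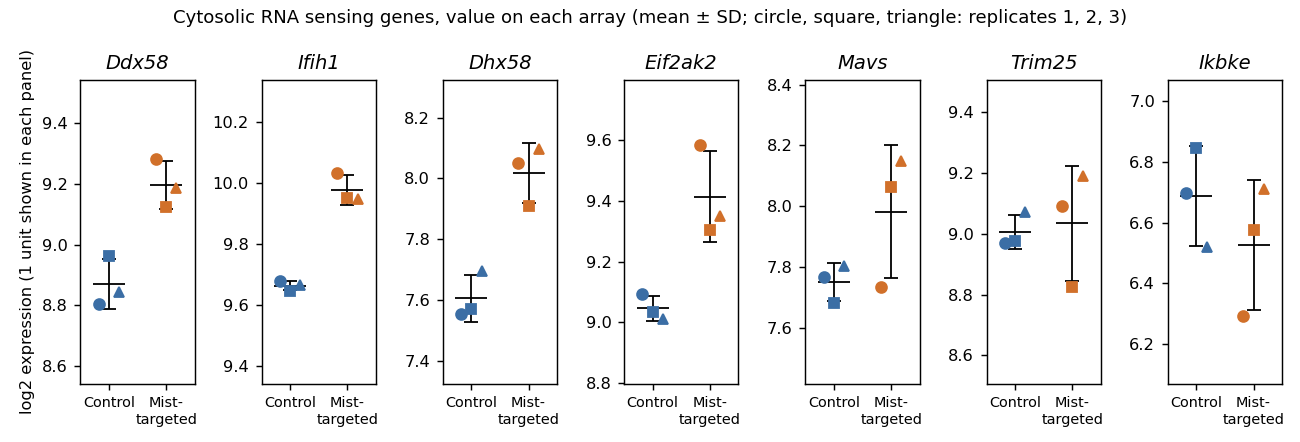
Log2 expression of the 7 measured genes on each of the 6 arrays, in panels that each span 1 log2 unit. Circles, squares and triangles are replicates 1, 2 and 3, and black bars are the mean ± SD of 3 arrays; Ddx58, Ifih1, Dhx58 and Eif2ak2 show no overlap between groups, while Mavs, Trim25 and Ikbke do.

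Among the sensors, Ddx58 encodes RIG-I, which recognises short double-stranded RNA with a triphosphate at its end. Its log2 expression (probe set 17423987) was 8.80, 8.96 and 8.85 on the Control arrays and 9.28, 9.12 and 9.18 on the Mist-targeted arrays. The lowest Mist-targeted array lay 0.16 above the highest Control array. The means were 8.87 ± 0.082 and 9.20 ± 0.080 (SD, n = 3 each), a log2 difference of 0.33 ± 0.089 (SE) or 1.25-fold (limma, adjusted p = 0.24).

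Ifih1 encodes MDA5, the receptor for long double-stranded RNA. At probe set 17385797, Control arrays read 9.68, 9.65 and 9.66, and Mist-targeted arrays read 10.03, 9.95 and 9.95. Ifih1 had the tightest Control values of the 7 genes, with an SD of 0.015, and the widest gap between the groups, 0.27. Its log2 difference was 0.32 ± 0.078 (SE), or 1.24-fold, with an adjusted p of 0.20 by limma.

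Dhx58 encodes LGP2, the receptor without signalling domains. Probe set 17269595 read 7.55, 7.57 and 7.70 on Control arrays and 8.05, 7.91 and 8.10 on Mist-targeted arrays, with a gap of 0.21 between the groups. Dhx58 had the largest difference and the smallest p of the set, from 7.61 ± 0.078 to 8.02 ± 0.098 (mean ± SD, n = 3 each), or 0.41 ± 0.092 (SE; 1.33-fold; limma, adjusted p = 0.16). It was the 1 gene of the set past the threshold when only the 23521 probe sets with 1 listed gene were tested (limma, adjusted p = 0.033), a setting in which 3.03% of probe sets were called. With that setting the adjusted p values of Ifih1, Eif2ak2 and Ddx58 were 0.067, 0.067 and 0.082.

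Eif2ak2 encodes PKR, the double-stranded RNA-activated kinase that restrains translation. At probe set 17347355, Control arrays read 9.09, 9.04 and 9.01, and Mist-targeted arrays 9.58, 9.30 and 9.35. All 3 Mist-targeted arrays lay above the Control arrays, with replicate 1 well above replicates 2 and 3. The log2 difference was 0.37 ± 0.10 (SE), or 1.29-fold (limma, adjusted p = 0.24), and it was 0.28 without Mist-targeted replicate 1.

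Promoter sequences of RefSeq (GRCm38.p6, 250 bases before to 50 after the gene start) were matched by symbol for 7 of the 8 genes, all but Dhx58. For Traf3 and Ikbke the start used lay inside the RefSeq span of the gene instead of at its edge. They were searched on both strands for 3 motifs: the core of the interferon-stimulated response element (ISRE), GAAA, any 2 bases and GAAA again; the interferon gamma-activated site (GAS), TTC, any 3 bases and GAA, which reads the same on both strands; and a site for NF-kB, GGGA, any base and TTTCC. The ISRE core was found in 3 of the 7 promoters, those of Ddx58, Ifih1 and Eif2ak2, where 3.44% of the 32851 promoters of the table held it. These are the 3 sensors with a sequence, and they are shown because the same 3 had groups that did not overlap. The sequences are written 5′ to 3′ on the strand of the gene, with the ISRE core in capitals: Ddx58 lies at chr4:40239776-40240075, Ifih1 at chr2:62646206-62646505 and Eif2ak2 at chr17:78882523-78882822, all on the minus strand.
Ddx58: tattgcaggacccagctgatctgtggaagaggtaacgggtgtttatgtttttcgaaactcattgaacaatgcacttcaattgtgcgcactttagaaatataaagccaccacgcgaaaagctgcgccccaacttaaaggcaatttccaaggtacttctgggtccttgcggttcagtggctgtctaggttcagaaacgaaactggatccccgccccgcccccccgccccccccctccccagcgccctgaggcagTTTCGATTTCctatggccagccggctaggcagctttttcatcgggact
Ifih1: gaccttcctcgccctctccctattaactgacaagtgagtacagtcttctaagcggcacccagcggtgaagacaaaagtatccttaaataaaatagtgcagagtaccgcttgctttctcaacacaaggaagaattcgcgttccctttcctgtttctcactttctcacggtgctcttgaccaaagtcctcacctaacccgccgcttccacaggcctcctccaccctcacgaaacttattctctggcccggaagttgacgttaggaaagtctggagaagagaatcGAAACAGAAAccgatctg
Eif2ak2: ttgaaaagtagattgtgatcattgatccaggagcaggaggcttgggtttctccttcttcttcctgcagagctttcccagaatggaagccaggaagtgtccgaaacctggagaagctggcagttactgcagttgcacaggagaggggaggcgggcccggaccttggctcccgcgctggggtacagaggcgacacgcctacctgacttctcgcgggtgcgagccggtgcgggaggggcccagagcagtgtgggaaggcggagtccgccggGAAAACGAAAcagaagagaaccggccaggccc
All 3 matches lie just after the gene start of the table, at bases 3 to 12 in Ddx58 (as TTTCGATTTC, the other strand), 33 to 42 in Ifih1 (GAAACAGAAA) and 19 to 28 in Eif2ak2 (GAAAACGAAA). The promoters of Mavs, Trim25, Ikbke and Traf3 held no match to the ISRE core. The GAS motif was found in 1 of the 7, that of Eif2ak2, where 8.30% of promoters held it. The NF-kB motif in the letters given above was found in none, where 0.411% of promoters held it. Other spellings of the motifs were not searched, so a promoter without a match may still hold such a site. A match is a description of the letters, and the matches do not overlap each other. Over the table, the 657 measured genes with an ISRE core had a median log2 difference of 0.0049, where the 16990 measured genes with a promoter had 0.0081. Groups did not overlap, with Mist-targeted higher, in 13.7% of genes with an ISRE core and in 10.7% of all genes with a promoter, and with Mist-targeted lower in 12.2% and 10.3%.

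The signalling genes did not separate by group. Mavs, the mitochondrial adaptor of RIG-I and MDA5 (probe set 17376480), read 7.77, 7.68 and 7.80 on Control arrays and 7.73, 8.06 and 8.15 on Mist-targeted arrays. Mist-targeted replicates 2 and 3 lay above all Control arrays, and replicate 1 lay within the Control range. The log2 difference was 0.23 ± 0.12 (SE; 95% interval -0.053 to 0.52; limma, adjusted p = 0.62), and it was 0.36 without Mist-targeted replicate 1 and 0.15 without Mist-targeted replicate 3.

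Trim25 encodes a ubiquitin ligase that promotes RIG-I signalling. Probe set 17255026 read 8.97, 8.98 and 9.07 on Control arrays and 9.09, 8.82 and 9.19 on Mist-targeted arrays, which lay on both sides of the Control values. Its log2 difference was 0.029 ± 0.11 (SE; 95% interval -0.23 to 0.29; limma, adjusted p = 0.97), and it turned to -0.048 without Mist-targeted replicate 3.

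Ikbke encodes IKK epsilon, the kinase that acts with TBK1 on IRF3 and IRF7. At probe set 17226771, Control arrays read 6.70, 6.85 and 6.52, and Mist-targeted arrays 6.29, 6.57 and 6.71. It was the 1 gene of the set with a lower mean in the Mist-targeted group, but 2 of the 3 Mist-targeted arrays lay within the Control range. The log2 difference was -0.16 ± 0.14 (SE; 95% interval -0.48 to 0.16; limma, adjusted p = 0.79), and it was -0.044 without Mist-targeted replicate 1, -0.081 without Control replicate 2, -0.24 without Control replicate 3 and -0.25 without Mist-targeted replicate 3.

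**Figure D2:**
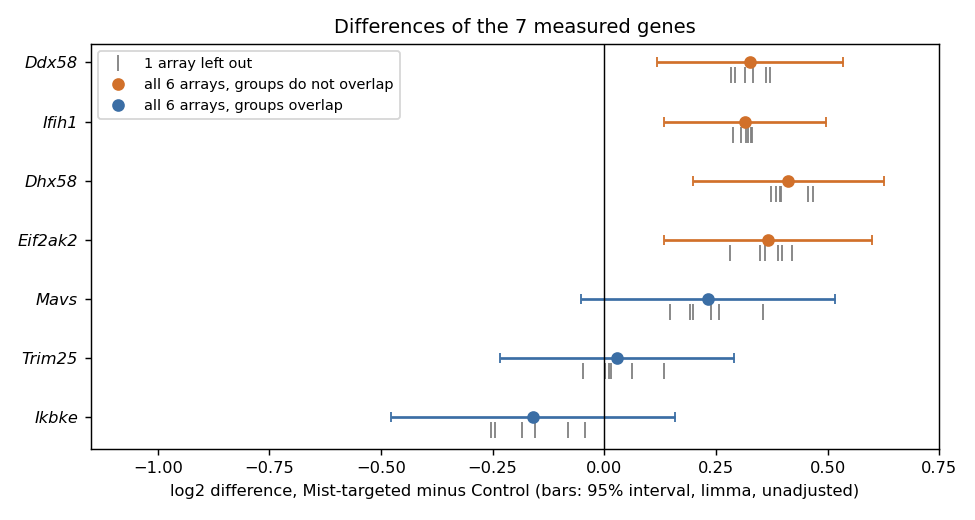
Log2 difference, Mist-targeted minus Control, of the 7 measured genes, with unadjusted 95% intervals from limma (dots and bars) and the difference with each array left out in turn (grey ticks). The intervals of Ddx58, Ifih1, Dhx58 and Eif2ak2 lie above 0, from 0.12 to 0.63 together, and those of Mavs, Trim25 and Ikbke include 0.

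The 4 sensors were compared array by array. Against the Control mean of each gene, their median was -0.019, -0.014 and -0.011 on Control arrays and 0.43, 0.27 and 0.31 on Mist-targeted replicates 1, 2 and 3. For the 3 signalling genes the medians were 0.0088, -0.029 and 0.052 on Control arrays and -0.017, -0.11 and 0.18 on Mist-targeted arrays. The sensors stood above the Control arrays on each Mist-targeted array, whereas the signalling genes lay on both sides. Spread between Mist-targeted arrays was 0.048 to 0.15 (SD) for the sensors and 0.19 to 0.22 for the signalling genes. The sensors are also the genes without overlap and the signalling genes those with it, so these values partly restate that split. Whether the sensors and the signalling genes differ in response was not tested.

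By size of the difference, the sensors lay in the upper tail of the genes with a mean above the median of the table. Of those 11567 genes, 248 had a larger positive difference than Dhx58, 331 than Eif2ak2, 440 than Ddx58 and 498 than Ifih1. Mavs had 1088 genes above it and Trim25 5268. For Ikbke 17.4% of these genes had a lower difference.

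**Figure D3:**
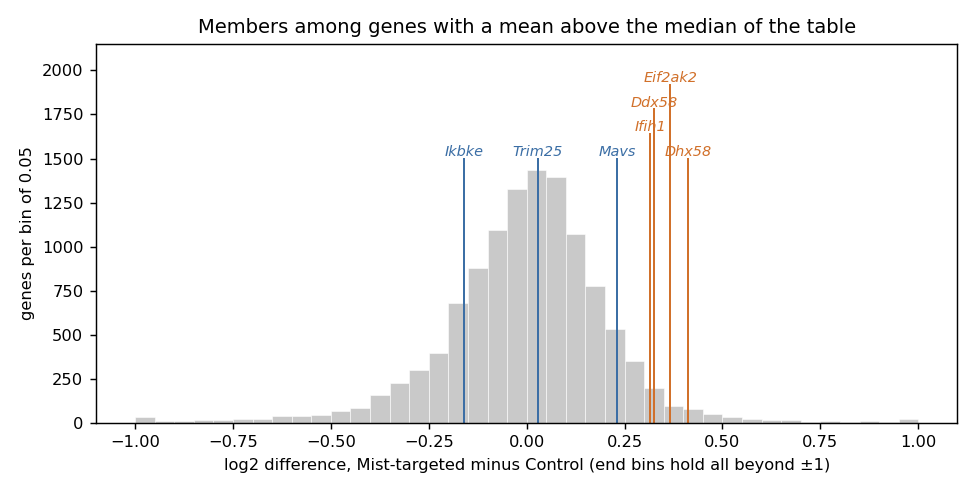
Histogram of log2 differences, Mist-targeted minus Control, for the 11567 genes with a mean above the median of the table, in bins of 0.05, where the end bins also hold all genes beyond -1 and 1, with the 7 measured genes marked (orange where groups do not overlap, blue where they do). Dhx58, Eif2ak2, Ddx58 and Ifih1 lie between 0.32 and 0.41, to the right of most genes.

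Other genes of the pathway were read as 4 lists with 60 measured members of 65; Ripk1, Nfkb1, Chuk, Eif2s1 and Eif2s3x had no probe set of their own and were not analysed here. Of the 60, none rose and 2 fell over all probe sets tested (limma, 0.254% of probe sets called). At an unadjusted p under 0.05 there were 14 higher and 4 lower, where 4.77% of all probe sets were higher and 4.92% lower. Of the 11567 genes with a mean above the median of the table, 989 were higher and 1119 lower by that measure. Groups did not overlap in 25 of the 60, with 18 higher and 7 lower. In either direction, 15.9% of all probe sets and 29.3% of genes with a mean above the median of the table did not overlap. By direction, 8.2% of all probe sets were apart and higher and 7.72% apart and lower. Of the 11567 genes, 1680 were apart and higher and 1713 apart and lower. The lists were chosen with earlier results of these data known, so their counts are a description and not a test.

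Cofactors and regulators of the sensors gave no call. Of 17 measured genes 12 had a positive difference and the median was 0.024. Groups were apart in 5 higher and 2 lower genes. For comparison, 1680 of the 11567 genes with a mean above the median of the table were apart and higher and 1713 lower. Ddx60, a helicase that assists RIG-I-like receptors, had the largest difference. It read 6.54, 6.67 and 6.59 on Control arrays and 7.08, 6.99 and 6.94 on Mist-targeted arrays (log2 difference 0.40 ± 0.084, SE, n = 3 each; limma, adjusted p = 0.14). Rnf135, a ubiquitin ligase for RIG-I, differed by 0.32 ± 0.087 from a low Control mean of 4.66 (adjusted p = 0.23). Tax1bp1, an adaptor that dampens MAVS signalling, differed by -0.20 ± 0.080 (adjusted p = 0.46).

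Downstream of MAVS, Irf7 stood out by size and had an adjusted p just above the threshold. Irf7 encodes the interferon regulatory factor that amplifies type I interferon production, and is itself interferon-induced. It read 9.81, 9.89 and 9.82 on Control arrays and 10.40, 10.37 and 10.61 on Mist-targeted arrays, a wide separation. The log2 difference was 0.62 ± 0.094 (SE; 1.53-fold; limma, adjusted p = 0.061). The death domain adaptor gene Fadd (0.25 ± 0.078, adjusted p = 0.32) and the caspase gene Casp8 (0.26 ± 0.079, adjusted p = 0.30), which also act in this pathway, were higher on every Mist-targeted array. Tbk1 and Irf3, the kinase and factor at the centre of the route, were added with their values known. They differed by -0.078 ± 0.079 and -0.020 ± 0.11 (limma, adjusted p = 0.84 and 0.98). Tbk1 was lower on every Mist-targeted array than on any Control array, by a narrow gap of 0.011. The sign of the Irf3 difference turned without Control replicate 2 or without Mist-targeted replicate 3. Of the 19 measured genes of this list 12 had a positive difference, the median was 0.044, and none passed. Groups were apart in 6 higher and 2 lower genes. Of the 11567 genes with a mean above the median of the table, 1680 were apart and higher and 1713 lower.

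Outputs of the pathway lay on both sides of 0. Ccl5, a chemokine induced by IRF3 and NF-kB, fell and was the only 1 of 11 outputs to pass (limma, adjusted p = 0.0053). That call was lost without Control replicate 2 (adjusted p = 0.053) and without moderation (0.11). It read 8.94, 8.98 and 8.90 on Control arrays and 7.26, 7.23 and 7.56 on Mist-targeted arrays, or 3.01-fold lower. Ifit1, which encodes an antiviral RNA-binding protein and has related copies in mouse that its probes may share, differed by 0.89 ± 0.13 (SE; adjusted p = 0.056). Ifit2, of the same family, differed by 0.47 ± 0.10, and Isg15, a ubiquitin-like modifier, by 0.41 ± 0.092 (adjusted p = 0.14 and 0.16). Ifnb1, the interferon beta gene, was named after its values were seen. It read 3.85, 3.81 and 3.45 on Control arrays and 3.76, 3.79 and 3.51 on Mist-targeted arrays, below the median of every array, and its difference was -0.021 ± 0.14 (adjusted p = 0.99), with the sign turning when any of 3 single arrays was left out. The median of the 11 outputs was 0.24 and 7 were positive. The 4 negative outputs were Ccl5 and the interferon genes Ifnb1, Ifna2 and Ifna4, the last 2 also named with their values known. Of the 11 outputs, 9 had a mean above the median of the table, and Ifnb1 and Ifna2 did not. Groups were apart in 5 higher and 1 lower gene. Of the 11567 genes with a mean above the median of the table, 1680 were apart and higher and 1713 lower.

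On the eIF2 side, where PKR acts, Ppp1r15a fell and the other 12 measured genes did not pass. Ppp1r15a encodes GADD34, the phosphatase subunit that reverses eIF2 phosphorylation. Control arrays read 6.74, 6.53 and 6.77, and Mist-targeted arrays 5.75, 5.92 and 5.94, a 1.75-fold lower level (limma, adjusted p = 0.039). That call was lost without any 1 of the 6 arrays (adjusted p of 0.10 to 0.16). Eif2ak3, the gene of the related kinase PERK, differed by -0.24 ± 0.12, the eIF2B subunit gene Eif2b4 by 0.28 ± 0.090 and the adaptor gene Nck1 by -0.28 ± 0.10 (adjusted p = 0.58, 0.35 and 0.42). The median over the 13 measured genes was -0.017.

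**Figure D4:**
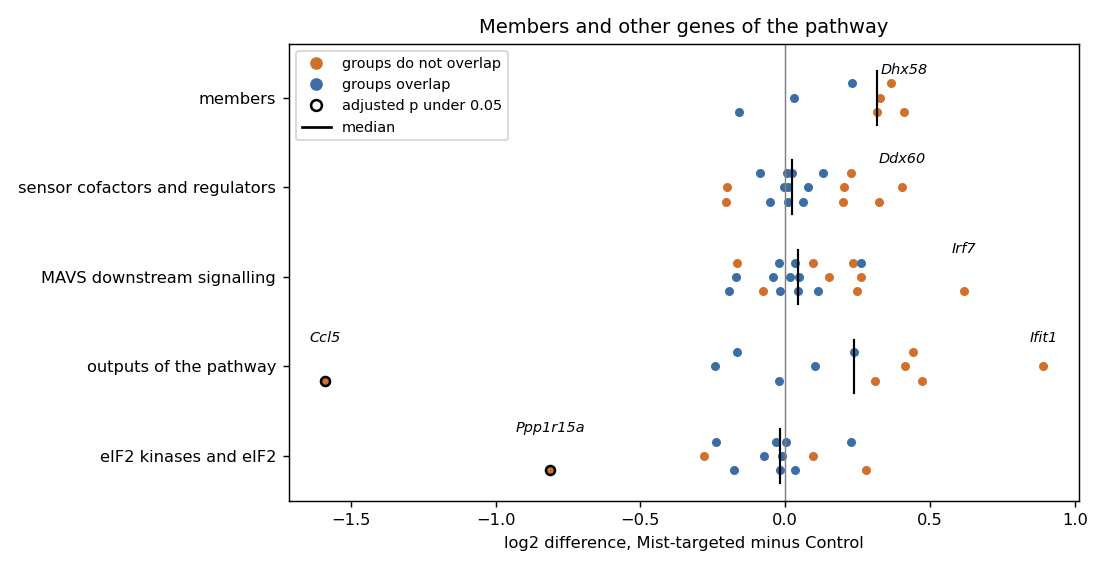
Log2 difference, Mist-targeted minus Control, of the 7 measured RNA sensing genes and of the 60 genes of 4 pathway lists, 1 dot per gene, with the list median as a black line. Orange dots have groups that do not overlap and outlined dots have an adjusted p under 0.05: Ccl5 at -1.59 and Ppp1r15a at -0.81 are the 2 outlined.

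Genes most like the mean of the 7 genes over the 6 arrays were Cep55, Tnfrsf11a and Top3a. They encode a midbody protein of cell division, the receptor RANK and a DNA topoisomerase. Their Pearson correlations with the mean of the 7 centred genes were 0.998, 0.996 and 0.994, and 11 of 10817 genes compared exceeded 0.99. The 6 arrays share the group difference, so these values describe the arrays and say nothing of shared control. Not all 7 genes followed their mean, as Ikbke differed in the other direction. Tnfrsf11a had the largest difference of the 3, from 8.35 ± 0.038 to 8.91 ± 0.13 (mean ± SD, n = 3 each; log2 difference 0.56 ± 0.093, SE; limma, adjusted p = 0.078).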

How the data were processed

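The authors deposited 1 table of log2 expression values, 1 column per array; per the submitters' processing notes RMA and Partek were used, with no version or role, and the array design is not given in the sources used here. Normalization of this kind draws arrays to a shared distribution, which would reduce a shift of most transcripts in 1 direction. Values were used as deposited. Probe sets were named from the platform annotation: 23521 had 1 gene symbol, 1814 several and 16010 were not listed. Gene IDs of 23328 were matched in RefSeq (GRCm38.p6), and 0 symbols were updated. Control probe sets could not be recognised, so all 41345 were tested. A gene with several probe sets was read at that with the highest mean.

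Differences are Mist-targeted minus Control from lmFit and eBayes of limma 3.58.1 (R 4.3.3; group as the only term; two-sided), with Benjamini-Hochberg adjustment over all probe sets and a threshold of 0.05. The fit was tested on simulated data. With 3 arrays a group, the smallest p of an exact permutation test is 0.1. Python 3.11.15, pandas 2.3.3 and matplotlib 3.10.9 made tables and plots.

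The genes, lists, motifs and alternatives were chosen with earlier results of these data known. All genes of the set are named, and per list those that passed (up to 5) and the 3 with the smallest p. The genes most like the mean of the set are the 3 with the highest Pearson correlation to it. They were taken among genes above the median of the table and not named Gm, Rik or LOC. Precision is limited by the number of arrays; differences had a median SE of 0.11 (log2).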

Additional observations from a re-analysis of the deposited data

How the results depend on the processing

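Each result was recomputed under 15 alternatives, 6 of which left out 1 array; Ifnb1 was not in the table without the dimmest probe sets, and the count of called probe sets was not taken with the mean of a gene's probe sets. The count of called genes among the 7 was 0 with every alternative except that testing only probe sets with 1 listed gene, where it was 1. Leaving out single arrays also gave 0. The median difference of the 7 genes ranged from 0.28 to 0.33. Probe sets called over the table (105) numbered 0 with the replicate block, 287 with a trended and robust prior, 0 without moderation, 161 without the dimmest 40% and 713 with listed probe sets only, and 2 to 40 with 1 array left out. For the 60 pathway genes (2 called) the counts were, in the same order, 0, 4, 0, 4 and 8, and 0 to 1 with 1 array left out. The 8 were Ccl5, Ppp1r15a, Ifit1, Irf7, Ifit2, Ddx60, Isg15 and Isg20, the last named after its value was seen. Ccl5 was lost with the replicate block (adjusted p = 0.089), without moderation (0.11) and without Control replicate 2 (0.053), and Ppp1r15a with the replicate block (0.14), without moderation (0.17) and with any array left out. Irf7 and Ifit1 passed with a trended and robust prior (adjusted p = 0.015 and 0.023) and without the dimmest 40% (0.0491 and 0.0486). Signs turned for Trim25, with values of -0.048 to 0.13 when 1 array was left out, Ifnb1 (-0.15 to 0.068) and Irf3 (-0.12 to 0.065). Differences of Ddx58, Ifih1, Dhx58 and Eif2ak2 stayed positive throughout, between 0.28 and 0.47. The cause of these changes was not tested.

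Same-numbered arrays of both groups had deviations from their group means that correlated at 0.20, 0.096 and 0.033. Arrays with different numbers correlated at -0.15 to 0.060. Every array correlated best with its own number except Control replicate 3, which did so with Mist-targeted replicate 2 (0.060 against 0.033). Deviations from a group mean cancel out within the group, so these correlations are not independent of each other. The main fit did not use the numbers as pairs, whereas the replicate block did. Whether the arrays were paired was not tested.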
